A study of Drosophila melanogaster with 9 samples.

Results

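A set of 119 protein-coding genes of Drosophila S2 cells was higher in every library of 2 RNA interference groups than in every control library. The set was selected on the transcript levels themselves. TPM values (a transcript's length-corrected share of the RNA in a library) of the genes with a CG identifier were rescaled to sum to 1000000 in each library. A gene was taken when its mean over the 9 libraries was at least 10, when the lowest of its 6 knockdown values lay above the highest of its 3 control values, and when the log2 ratio of the mean of the 6 to the mean of the controls was at least 0.4. The genes of HP1a (CG8409) and Su(var)3-9 (CG6476) and the cytosolic ribosomal protein genes were left out, which removed CG6476 and RpL39. Of 14088 coding genes in the table, 6151 had a mean of at least 10, and the 119 members come from these. Because the comparison with the control chose the genes, their values in it are given as a description and carry no test. A level is a share of the RNA of many cells, so fewer cells with a transcript and less transcript per cell cannot be told apart. Levels below are rescaled TPM unless stated otherwise.

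S2 is an embryonic Drosophila cell line. All 9 cultures received 1 µg of double-stranded RNA by Effectene transfection and were harvested after 3 days. The dsRNA was directed against GFP in the 3 controls, against HP1a in 3 samples and against Su(var)3-9 in 3 samples, and total RNA was sequenced. The study's methods describe the replicates as repeats of the RNAi experiment, and the labels give no more on how they were kept apart.

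Su(var)3-9 is a methyltransferase that places methyl groups on lysine 9 of histone H3, and HP1a is the chromodomain protein that binds this mark and compacts chromatin around it. Together they build the heterochromatin that surrounds the centromeres and holds most of the transposon copies of the genome. Loss of heterochromatin proteins can raise the transcription of some genes near or within it and lower that of others that depend on it.

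The transcript of each targeted gene was higher in the libraries labelled as its knockdown. The HP1a gene read 596, 495 and 526 in the controls and 3789, 2796 and 2849 in the libraries labelled HP1a RNAi, while CG6476, which shares its locus with the gene of a translation factor, read 240, 219 and 240 in the controls and 3923, 2483 and 3251 where the label is Su(var)3-9 RNAi. The directions below therefore describe the libraries as labelled, not a measured loss of either transcript. The study reports lower levels of both proteins after RNAi, measured by immunoblot. Protein levels were not analysed here, and the reason for the higher transcript levels was not tested. Coding genes took 9.70% to 15.3% of the deposited TPM, with 2 controls (replicates 1 and 3) and Su(var)3-9 RNAi replicate 3 above 14%, and levels of coding genes correlated between libraries at Pearson r of 0.944 to 0.985. Hemocyte markers, which fit the macrophage-like character of the line, had a mean of at least 10 for 10 of 14 genes. All 14 summed to 416 to 467 in the controls, 446 to 529 in the libraries labelled HP1a RNAi and 399.8 to 528 in those labelled Su(var)3-9 RNAi. The 14 include Lsd-2, which was not among the planned markers and read 0 in all 9 libraries, so the sums do not depend on it. Of the markers that define the lineage, Hml was low at 4.17 to 11.4 and NimC1 was at 1.47 or below. No neuron, muscle, fat body or germ line marker reached a mean of 10.

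The members' log2 ratio ran from 0.40 to 1.18 with a median of 0.51, a 1.43-fold difference, against a median of 0.01 over the 6151 genes, with the lower end set by the rule. Only 5 members were at least 2-fold higher (ND6, Gk2, CG18135, CG34250 and Ada1-1) and 35 at least 1.5-fold. The libraries labelled HP1a RNAi and those labelled Su(var)3-9 RNAi stood at about the same distance from the controls, with median log2 ratios of 0.52 (0.26 to 1.23) and 0.50 (0.20 to 1.52), and they share those controls. The rule required both groups to lie above the controls, so this likeness was partly set by the choice of genes. Summed, the members took 0.562% to 0.623% of coding transcript in the control libraries and 0.851% to 0.891% in the 6 others. They were mid-level transcripts: 28 had a mean under 20, 82 lay between 20 and 100, and 9 reached 100 or more, with a median of 30.9 against 43.8 for all genes with a mean of at least 10.

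How much background stands behind such a set can be read from the same table. All 6 knockdown libraries lay above all 3 controls for 275 genes (4.47% of those tested) and below them for 263 (4.28%). The fold requirement reduced the higher genes to 121 (1.97%), from which the 119 remained after the exclusions by name, and the mirror image of the full rule found 180 lower genes. Just inside the fold limit were CG7639 and Suv3, both at 0.402, and galectin at 0.401. Just outside it were Prx4, less than 0.001 below the limit, muskelin at 0.399 and CG3500 at 0.398, so that the edge separates genes with the same difference. The distance between the groups was often narrow: the lowest knockdown value divided by the highest control value had a median of 1.08, was at least 1.2 in 15 members and was under 1.1 in 73. The widest separations belonged to Gk2 (1.74), CG17264 (1.48), Sirup (1.40) and CG8478 (1.35).

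Which control libraries were present mattered to the list. Control replicate 3 was the lowest of the 3 controls for 71 of the 119 members, at a median log2 of -0.14 to the control mean. Over all genes tested its median was -0.03, and how often it was the lowest control there was not counted. Without control replicate 3 the 119 members had a median log2 ratio of 0.48, their lowest ratio was 0.19 (mRpS24), and 87 of them still met the fold limit. Applied afresh without control replicate 1 the rule took 272 genes, without control replicate 2 it took 221 and without control replicate 3 it took 165, since fewer libraries had to be exceeded. The scale mattered as well. On TPM as deposited the median gene was at a log2 ratio of -0.31, and all 119 members were still above 0, but only 6 had groups that did not overlap. Relative to that median gene, 112 of them were higher by at least 0.4. With size factors, quantile normalization or rescaling without ribosomal protein genes all 119 also stayed above 0, and 96 to 117 kept groups that did not overlap. The members were chosen for these traits on the same libraries, so the direction was largely set by that choice. These counts are given without the share over all genes, and they describe only how the list depends on the scale.

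Libraries of a like coding share can be set side by side, an addition made after the data were seen. Su(var)3-9 RNAi replicate 3 over control replicates 1 and 3, all above 14%, gave the members a median log2 ratio of 0.56. The other 5 knockdown libraries over control replicate 2, all under 12%, gave 0.46. The rule used each of these libraries, so the direction of both values was fixed by the choice of genes and they do not bear on the part of the coding share, which was not tested.

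**Figure D1:**
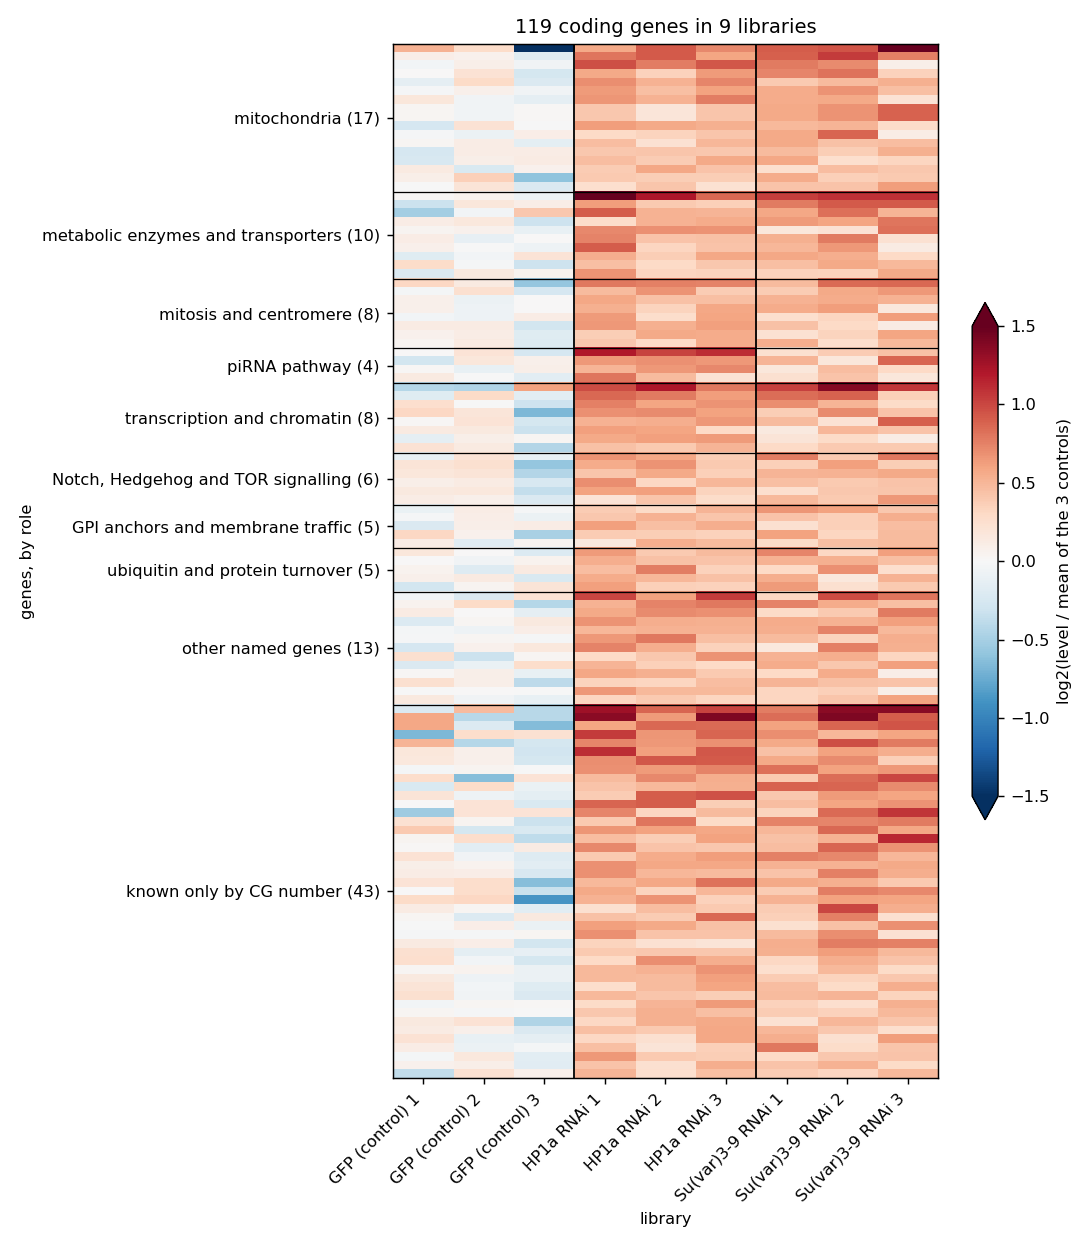
Each line is a member and each column a library, coloured by the log2 of its level over the mean of the 3 controls, with the colour scale saturated at both ends; genes are grouped by role and ordered within a role by their ratio. The 6 knockdown columns are red in every group by the choice of genes, and ND6, the top line, is deep blue in control replicate 3.

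The members were sorted by what their products are known to do, a sorting made with the list in hand. It gave 17 genes of mitochondria, 10 metabolic enzymes and transporters, 8 genes of mitosis and the centromere, 4 of the piRNA pathway, 8 of transcription and chromatin, 6 of signalling, 5 of GPI anchors and membrane traffic, 5 of ubiquitin and protein turnover, 13 other named genes and 43 known only by a CG number. Median log2 ratios of these groups lay between 0.45 and 0.58. The share of each role among all genes tested was not counted, so these numbers do not show that any role was more frequent than elsewhere.

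The mitochondrial members spanned respiration, iron-sulphur chemistry, lipid transfer and the organelle's own gene expression. Sirup, which matures the flavoprotein of respiratory complex II, read 129, 125 and 105 in the controls, 208, 226 and 181 in the libraries labelled HP1a RNAi and 222, 248 and 203 in those labelled Su(var)3-9 RNAi, a log2 ratio of 0.84. Mcad, the medium-chain acyl-CoA dehydrogenase of fatty acid oxidation, read 32.7, 35.6 and 32.4, then 65.4, 57.2 and 63.8, then 57.8, 54.9 and 35.7 in the same order. Sirup was thus clear of its controls in every library, whereas Mcad nearly met them in Su(var)3-9 RNAi replicate 3. NdufA3, a small subunit of complex I and the second most abundant member, read 196, 227 and 163 in the controls and 247 to 342 in the others. MagR and Fdx2, which act in iron-sulphur cluster assembly, both had a log2 ratio of 0.56. The genes of mitochondrial translation and RNA were mRpS11 (0.56), mRpL17 (0.51), mtTFB2, the mitochondrial transcription factor (0.45), the release factor mRF1 (0.44), mRpS24 (0.41) and the RNA helicase gene Suv3 (0.40). The remaining members of the group were slmo, of the PRELI family of lipid carriers (0.44), the ubiquinone synthesis gene Coq9 (0.43), Ccdc58 (0.42) and the paired genes sloth1 and sloth2 (0.54). The last 2 are small proteins translated from a shared transcript, and their 9 values were identical, so they count as a single measurement.

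ND6, the member with the largest ratio, is encoded in the mitochondrial genome as a subunit of complex I. It read 97.3, 82.2 and 24.0 in the controls, 101, 129 and 112 in the libraries labelled HP1a RNAi and 127, 130 and 327 in those labelled Su(var)3-9 RNAi. A low control and a high knockdown library made the ratio of 1.18, which was 0.78 without control replicate 3. For 9 of the 12 other protein genes of the mitochondrial genome with a mean of at least 10, control replicate 3 was the lowest of all 9 libraries, and ATP8 was listed at 0 in 8 libraries. COX1, for example, read 9328 and 7982 in the other controls and 2759 there. None of the 12 had groups that did not overlap, and their log2 ratios ran from -0.23 to 0.84. The part of this library-wide difference in the ND6 value was not tested.

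Among enzymes and transporters Gk2, a glycerol kinase, had the widest separation of the whole set. It read 6.97, 7.17 and 6.54 in the controls, 19.8, 15.98 and 12.5 in the libraries labelled HP1a RNAi and 14.1, 14.7 and 14.7 in those labelled Su(var)3-9 RNAi, a log2 ratio of 1.15. The 3 controls lay within a narrow band, and the lowest knockdown library was far outside it. With a control mean of 6.89, Gk2 reached the required mean of 10 only through the knockdown libraries. The same held for swa, dati, CG15625, CG31109, mtTFB2, CG1636 and Ice2. Read support for Gk2 was low, with 35.3 as the lowest of the authors' mean counts. Zip88E, a zinc transporter of the ZIP family, followed at 0.68, then Pepck1, the phosphoenolpyruvate carboxykinase of gluconeogenesis, at 0.65. Gmer, which makes GDP-fucose, and the trehalose transporter Tret1-1 both stood at 0.57. Argk2, an arginine kinase, was at 0.54, Idi, an isomerase of the isoprenoid route, at 0.51, the peroxisomal carrier PMP34 at 0.49, Dpck, for the last step of coenzyme A synthesis, at 0.45, and the transporter MFS14 at 0.43.

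The 8 members with roles in cell division ranged from the centromere to anaphase. The gene cid encodes the centromeric histone H3 variant, the fly CENP-A. It read 19.5, 17.3 and 10.5 in the controls, 27.4, 26.6 and 26.4 in the libraries labelled HP1a RNAi and 21.9, 28.5 and 28.6 in those labelled Su(var)3-9 RNAi. The log2 ratio of cid was 0.75 with all controls and 0.53 without control replicate 3, the lowest of them. Kmn1, a kinetochore protein of the KMN network, read 22.0, 19.5 and 20.9 in the controls and 28.2 to 31.0 in the 6 others, 1 of the wider separations of the set at 1.29. The rest were gwl (0.53), the Greatwall kinase that restrains a phosphatase during mitosis, msd5 (0.47), of the augmin complex of the spindle, borr (0.46), the borealin of the chromosomal passenger complex, Sse (0.46), the separase that cleaves cohesin, vih (0.45), a ubiquitin-conjugating enzyme that works with the anaphase-promoting complex, and bora (0.43), an activator of Aurora A.

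A group of 4 members belongs to the piRNA pathway, the small RNA system that silences transposons in the gonads. The gene aub encodes Aubergine, a cytoplasmic Piwi protein that cuts transposon transcripts. It read 38.9, 44.8 and 32.5 in the controls, 89.3, 78.0 and 83.2 in the libraries labelled HP1a RNAi and 45.8, 50.3 and 52.7 in those labelled Su(var)3-9 RNAi, so that the former stood far above both other groups and the latter just above the controls. The gene mael, whose product acts in transposon silencing downstream of Piwi, read 20.2, 18.4 and 21.2, then 28.4, 31.4 and 32.9, then 22.5, 27.5 and 24.4 in the same order. The log2 ratios were 0.78 for aub, 0.60 for daed, which anchors piRNA processing at the mitochondrial surface, 0.48 for mael and 0.40 for kipf, a zinc finger protein that guides Rhino to piRNA clusters. All 4 had a higher mean in the libraries labelled HP1a RNAi than in those labelled Su(var)3-9 RNAi, as had 7 of the 8 members of transcription and chromatin and 67 of all 119. The share over all genes was not counted, but the median of all genes tested was also higher there, by 0.06 on the log2 scale. Of the 4 only aub was called by limma between these groups. Other Piwi-family genes were not members: AGO3 read 13.9 to 31.9 in the controls and 12.5 to 46.6 in the others, and piwi was at 2.80 or below in all 9 libraries. On a list of 13 small RNA silencing genes tested, which does not hold mael, daed or kipf, aub was the only member. The median log2 difference of that list from the control was 0.01 for HP1a RNAi and -0.13 for Su(var)3-9 RNAi. All genes tested stood at 0.04 and -0.01.

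Members with roles in transcription and chromatin included 2 subunits of coactivator complexes, Taf10b (0.59) of TFIID and SAGA and MED31 (0.59) of Mediator. Chd3, a chromatin-remodelling ATPase, read 42.6, 49.7 and 47.8 in the controls, 69.5, 71.8 and 72.9 in the libraries labelled HP1a RNAi and 53.5, 56.9 and 50.4 in those labelled Su(var)3-9 RNAi. As with aub, its higher values were those labelled HP1a RNAi, while replicate 3 of the Su(var)3-9 RNAi label was next to the highest control. The zinc finger genes dati (0.73) and her (0.57), mip120 (0.44), of the Myb-MuvB complex, and Adf1 (0.41), a promoter-binding factor, completed the group with Ada1-1. The latter, a SAGA subunit gene, had a log2 ratio of 1.09. It read 7.75, 7.63 and 15.8 in the controls and 18.0 to 27.0 in the others, whereas Ada1-2 read 39.0 to 58.2 and 39.1 to 59.9. Ada1-2, the more abundant copy, had a log2 ratio of -0.03, and the sum of both stood at 0.24. CG18789 (0.64) overlaps Ada1-2 in the annotation, and its copy CG18787, which overlaps Ada1-1, had a log2 ratio of 0.05. The sum of CG18787 and CG18789 stood at 0.25. How the counting divided reads between such copies was not tested, so the values of these 2 members are uncertain.

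Signalling members were few, and 4 of the 6 act on the Notch receptor or its processing. Eogt (0.61) adds N-acetylglucosamine to the extracellular repeats of Notch, Xxylt (0.50) extends a sugar chain on such repeats, aph-1 (0.49) is a subunit of the gamma-secretase that releases the Notch intracellular domain, and amx (0.47) is needed for Notch signalling. The gene smo (0.44), which transduces the Hedgehog signal across the membrane, read 25.0, 25.3 and 17.6 in the controls and 26.9 to 34.7 in the others, and Rheb (0.41) is the GTPase that activates the TOR kinase. Each of these 6 had its lowest value in control replicate 3, by a wide margin in Xxylt (22.8 against 39.0 and 40.4) and by little in Eogt (11.03 against 11.08 and 13.8). GPI anchor and traffic genes were PGAP5 (0.48), RabX6 (0.45), PIG-H (0.45), the clathrin adaptor gene AP-2sigma (0.42) and the SNARE gene Vti1a (0.40).

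CtsL1, a lysosomal cathepsin L protease, was by far the most abundant member. It read 1893, 1817 and 1952 in the controls, 2757, 2560.1 and 2545 in the libraries labelled HP1a RNAi and 2709, 2733 and 2586 in those labelled Su(var)3-9 RNAi, a log2 ratio of 0.49 with tight groups. Ubc10 (0.54), Rpt6R (0.48), Duba (0.46) and morgue (0.44) are genes of ubiquitin transfer or removal and of the proteasome. Among the other named genes swa, needed to place bicoid mRNA in the oocyte, had the largest ratio at 0.81, from 6.16 to 8.32 in the controls to 8.87 to 14.8 in the others. Pxn, the peroxidasin of the extracellular matrix and a hemocyte marker, read 77.3, 96.6 and 103 in the controls and 103 to 156 in the others, so that the lowest knockdown value and the highest control were nearly the same. The rest were Lrr47 (0.64), cass (0.58), Dph1 (0.58), which starts the synthesis of diphthamide on translation factor eEF2, slv (0.56), Ice2 (0.55), Es2 (0.47), the nucleoporin gene Nup35 (0.46), pie (0.42), the deacetylase gene Sirt2 (0.42), pst (0.41), a determinant of resistance to a picorna-like virus, and galectin (0.40).

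The 43 members without a name had log2 ratios of 0.40 to 1.125, with a median of 0.55. CG18135 read 13.4, 21.5 and 11.6 in the controls, 37.5, 28.3 and 31.2 in the libraries labelled HP1a RNAi and 26.3, 39.5 and 39.95 in those labelled Su(var)3-9 RNAi. CG34250, a gene of 263 bases, read 94.5, 47.2 and 47.4, then 161, 98.0 and 167, then 113, 166 and 118. Their ratios were the largest after those of ND6 and Gk2, but control replicate 1 came close to the lowest knockdown library for CG34250, which also had the least read support of all members. CG17264 read 32.2, 33.7 and 32.8 in the controls and 49.98 to 58.2 in the others, a separation second only to that of Gk2. Others among the 20 largest ratios were CG31898 (0.79), CG15625 (0.74), CG4793 (0.73), CG12713 (0.73), CG12107 (0.71), CG2540 (0.68) and CG31109 (0.67). CG42239 was the most abundant of the unnamed genes, at 125, 127 and 55.6 in the controls and 130 to 164 in the others, and its ratio of 0.55 fell to 0.25 without control replicate 3.

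**Figure D2:**
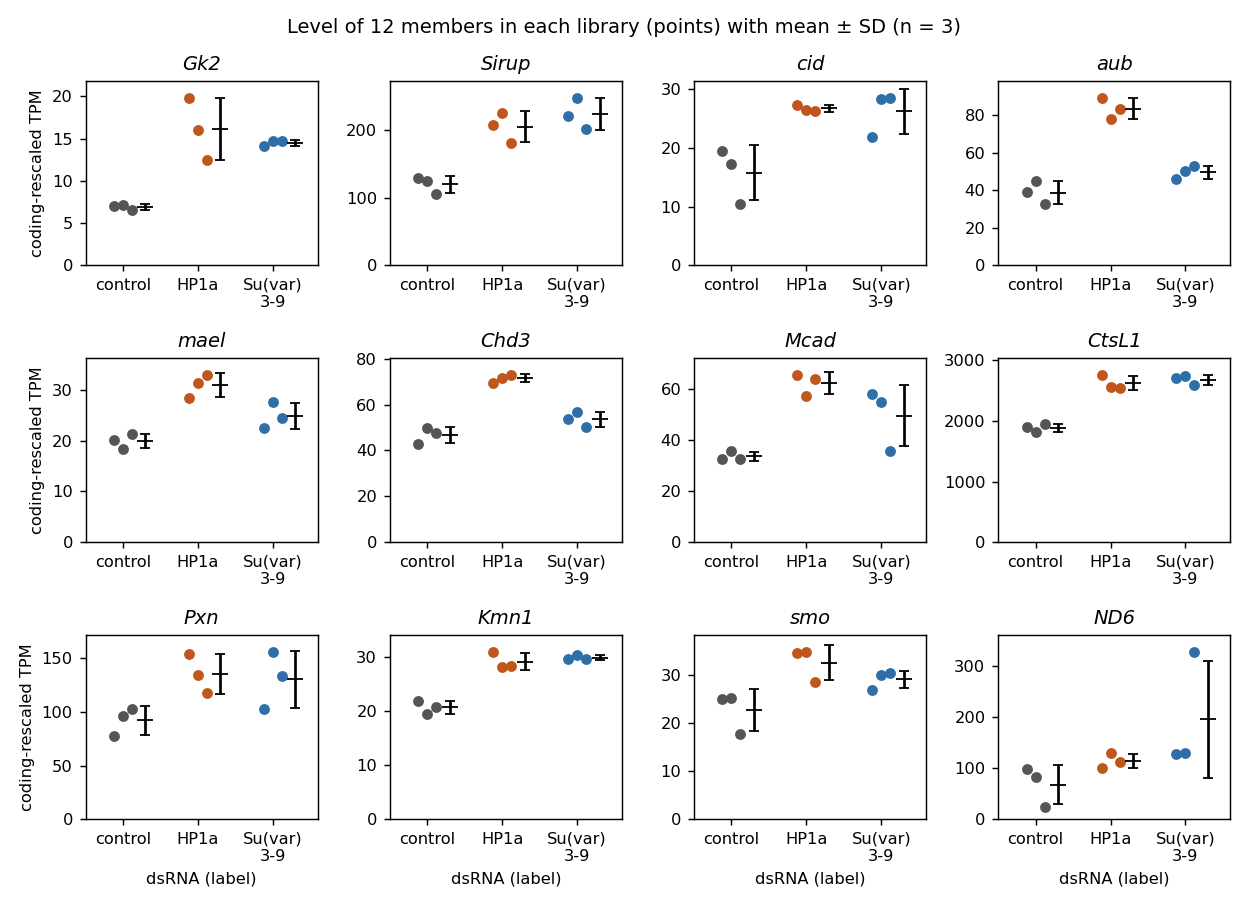
Rescaled TPM of 12 members (vertical axes from 0) in each library, with points for libraries and a bar for the mean ± SD of 3. Gk2 and CtsL1 lie clear of their controls in all knockdown libraries. Spread is small in CtsL1, while Gk2 ranges from 12.5 to 19.8 in the libraries labelled HP1a RNAi. The genes aub and Chd3 are highest in the libraries labelled HP1a RNAi, and ND6 is spread by a low control (24.0) and a high library labelled Su(var)3-9 RNAi (327).

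The comparison of the libraries labelled HP1a RNAi with those labelled Su(var)3-9 RNAi asks whether the level of these genes differed between the 2 treatments. It was not itself a criterion of the rule. The rule did use the same 6 libraries and required each to exceed the controls. A gene higher in only 1 group could thus not be a member, and the values below depend on that choice. For nearly all members no difference was detected. With limma on log2(rescaled TPM + 1), 5 of the 6151 genes were higher in the libraries labelled HP1a RNAi (0.0813%) and 5 lower (0.0813%) at a Benjamini-Hochberg adjusted p below 0.05, and these include the HP1a gene and CG6476. A single member was among the 10, aub, which was higher by 0.74 on the log2 scale (SE 0.10, limma adjusted p = 0.0449), with a mean of 83.5 ± 5.68 (SD, n = 3) against 49.6 ± 3.49. All 3 of its libraries labelled HP1a RNAi lay above all 3 of the others. The difference kept its sign in 18 alternative settings and passed the threshold in 6 of them, with adjusted p from 0.0372 to 0.9995. Leaving out any of the 6 libraries other than Su(var)3-9 RNAi replicate 3 put it between 0.168 and 0.327, while the difference itself stayed between 0.69 and 0.79. TTLL4A, which overlaps aub in the annotation, read 34.9 to 43.3 in the libraries labelled HP1a RNAi and 29.1 to 41.4 in those labelled Su(var)3-9 RNAi.

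The other members were closer together. Chd3 was higher by 0.41 in the libraries labelled HP1a RNAi (SE 0.09, limma adjusted p = 0.334), and its libraries did not overlap. CG4025 differed by -0.42 and Zip88E by -0.40, both higher under the Su(var)3-9 RNAi label, with limma adjusted p of 0.443 and 0.588. ND6 differed by -0.63, and by -0.19 without Su(var)3-9 RNAi replicate 3. Over the 119 members, 9 had an unadjusted p below 0.05 in this comparison, which is 7.56% against 7.58% of all genes tested, and sloth1 and sloth2, a single measurement, make up 2 of the 9. In 9 members the libraries labelled HP1a RNAi all lay above those labelled Su(var)3-9 RNAi (8.47% of all genes did) and in 9 the reverse held (5.28% of all genes). The median difference was 0.02 for members and 0.06 for all genes, and 67 members had the higher mean in the libraries labelled HP1a RNAi against 52.

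**Figure D3:**
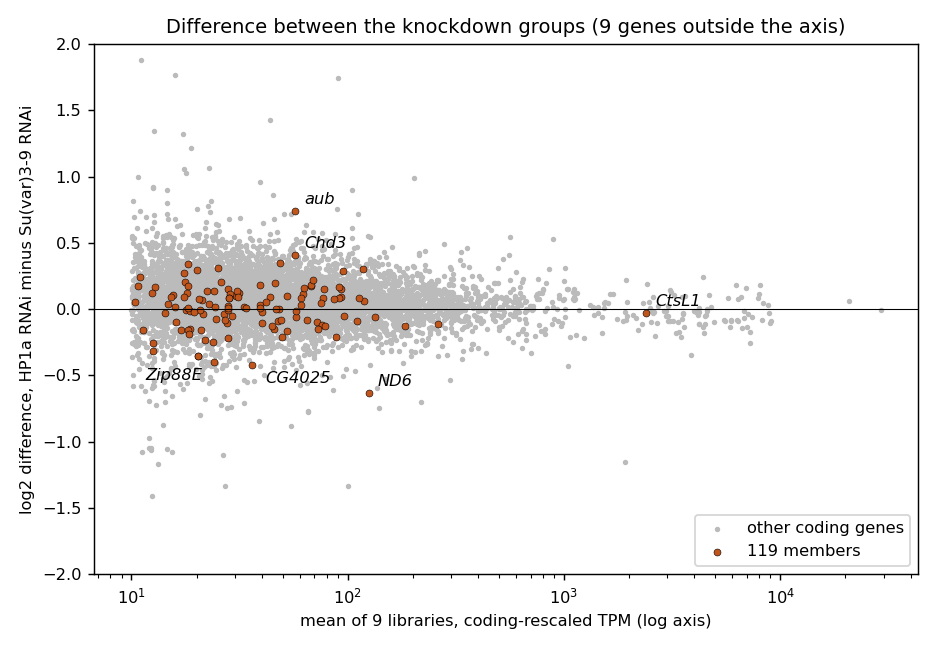
Each point is a coding gene, with its mean over 9 libraries on a log axis and the log2 difference of the libraries labelled HP1a RNAi from those labelled Su(var)3-9 RNAi on the vertical axis. The 119 members (orange) lie around 0 among the other genes (grey), aub stands above at 0.74, and 9 genes, among them both targets, fall outside the axis.

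The members shared features that the rule did not use. They were shorter: the median was 1410 bases against 1875 for all genes with a mean of at least 10, 23.5% were under 1000 bases against 18.3%, and 7.56% were longer than 3000 bases against 24.4%. The share of genes that were members was 1.19% under 500 bases (2 of 168), 2.72% from 500 to under 1000 bases, 3.07% from 1000 to under 2000, 1.119% from 2000 to under 3000 and 0.60% at 3000 and over. Length and ratio went weakly together over all genes, with a Spearman coefficient of -0.19 across 6150 genes that share the same 9 libraries, and the median log2 ratio of all genes of 3000 bases and over was -0.06 against 0.05 for those of 1000 to under 2000. The 9 long members were Pxn, smo, dati, mip120, gwl, Duba, CG8202, CG18135 and Chd3. Whether library preparation or RNA quality had a part in the relation to length was not tested.

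**Figure D4:**
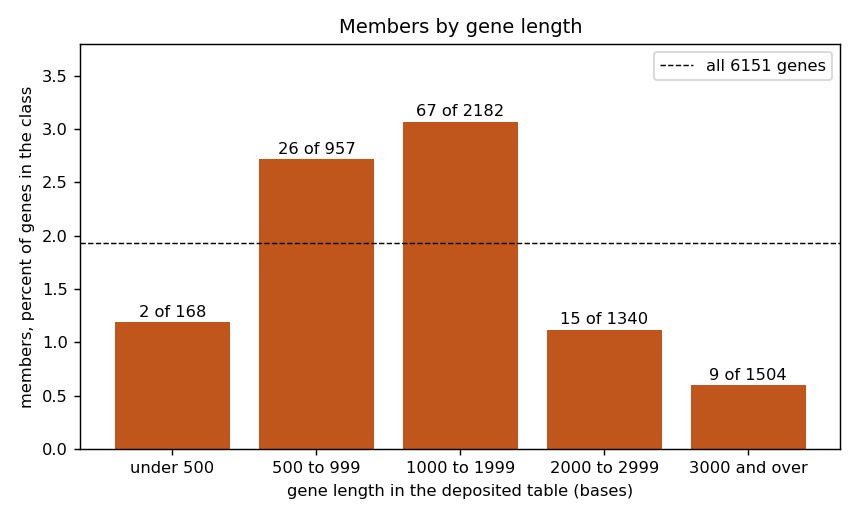
Share of genes in each length class that are members (bars, percent from 0), with the counts above the bars and the share over all 6151 genes as a dashed line. The classes from 500 to under 2000 bases hold 93 of the 119 members, and the share is lowest at 0.60% among genes of 3000 bases and over.

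In the genome 16 of the members formed 8 neighbouring pairs in the annotation: CG9775 and MED31, CG32452 and mael, sloth1 and sloth2, CG3907 and Xxylt, aph-1 and Taf10b, CG17224 and CG17264, RabX6 and Vti1a, and AP-2sigma and Idi. Of the 164 adjacent places of members held by a gene with a mean of at least 10, a member held 16 (9.76%), against 1.93% members among all such genes. RabX6 and Vti1a overlap, as do the sloth genes, and such pairs are not independent measurements. Of the 119 members 51 (42.9%) overlapped another coding gene with a mean of at least 10, against 31.1% of all such genes with a position, among them Zip88E with Cp190, Mcad with CG7457, Sirup with Wwox and Kmn1 with CG11699. The sources do not say that counting used strand, so reads of such pairs cannot be told apart and these values are uncertain. A small RNA gene lay within 1 member, her, which is 0.84% against 3.26% of all genes tested.

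Most members have a simple transcript structure in the deposited transcript table. Of the 119, 85 had a single annotated transcript, and 26 had several with a mean of at least 1. Among these 26, the transcript that was most abundant in the control was also the one that gained most in 21, a single transcript carried at least 80% of the gain in 13, and 8 had a transcript that was lower in the knockdown mean. For mael the transcript CG11254-RB read 18.3, 12.7 and 5.61 in the controls and 20.5 to 32.9 in the others, while CG11254-RA read 0, 5.70 and 15.6 in the controls and 3.85 or less in the others. The share of CG11254-RB was thus 61.2% in the controls and 93.6% in the knockdown mean, with control replicate 3 again the library that differed. In MED31 the gain lay mostly in CG1057-RB, at 8.60, 15.8 and 17.9 in the controls and 14.5 to 43.6 in the others, and the share of CG1057-RA was 72.0% and 57.7%. The division of reads between such transcripts is an estimate, and transcripts of a gene are not independent of each other.

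**Figure D5:**
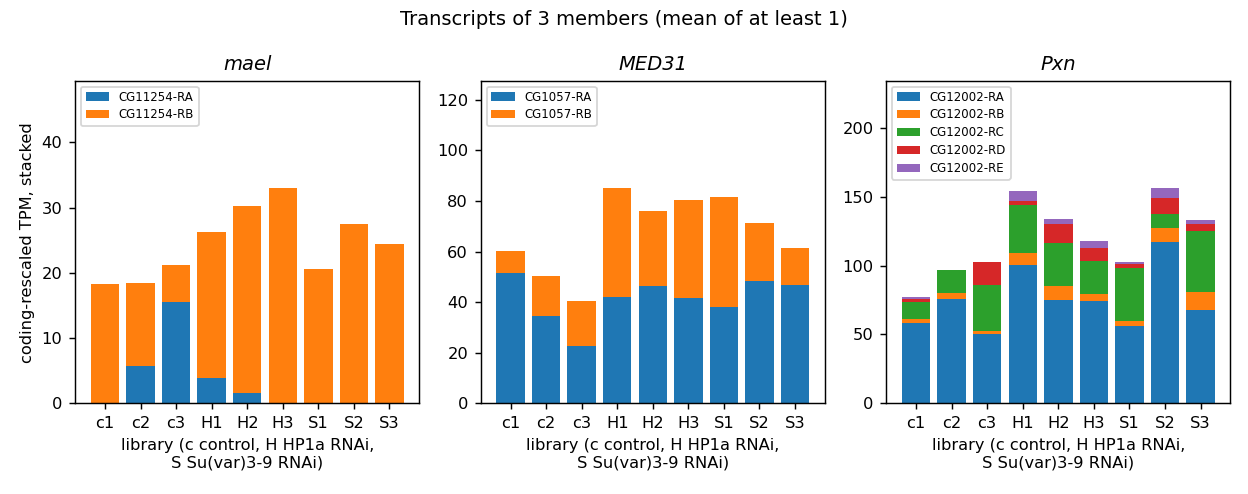
Stacked rescaled TPM of the transcripts of mael, MED31 and Pxn in the 9 libraries (c control, H labelled HP1a RNAi, S labelled Su(var)3-9 RNAi). CG11254-RA of mael is at 15.6 in control replicate 3 and at 3.85 or less in every knockdown library, and CG1057-RB of MED31 is highest in replicate 1 of the Su(var)3-9 RNAi label at 43.6.

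Read support can be judged only from the authors' own means of counts scaled by library size factors, given for each condition. The lower of these means was 9.93 for CG34250, had a median of 72.6 over the members, and was under 50 for 35 of them, 17 of which are genes known only by a CG number. Differences of the size seen here rest on few reads in such genes.

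Few genes of the wider groups that the members belong to passed a test. Of 71 mitochondrial ribosomal protein genes tested, 3 were members, none was called by limma between the libraries labelled HP1a RNAi and the controls, and 12 had an unadjusted p below 0.05 (16.9% against 13.9% of all genes). Their median log2 difference from the control was 0.16, against 0.04 for all genes. For Su(var)3-9 RNAi against the control none was called, and 5 had an unadjusted p below 0.05 (7.04% against 10.2% of all genes). The median there was 0.14, against -0.01 for all genes. Over all 6151 genes the comparison of HP1a RNAi with the control called 8 higher (0.13%) and 33 lower (0.536%), and the libraries labelled Su(var)3-9 RNAi gave 1 higher (0.0163%) and 9 lower (0.146%). Of 13 small RNA silencing genes tested, aub was the only one called, in both comparisons of the libraries labelled HP1a RNAi, and its value against the control was among those that chose it. None of 10 hemocyte markers was called in any of the 3 comparisons. Of these 10 markers 1 had an unadjusted p below 0.05 between the knockdown groups, against 7.58% of all genes. In each comparison with the control 2 did, against 13.9% of all genes for HP1a RNAi and 10.2% for Su(var)3-9 RNAi. Pxn was the only member among the 10 markers. None of 17 other genes of the HP1 family and of H3K9 methylation, a list without the targeted genes, was a member. None was called, with 1 at an unadjusted p below 0.05 between the knockdown groups (7.58% of all genes), 2 for HP1a RNAi against the control (13.9%) and 4 for Su(var)3-9 RNAi (10.2%). Of 139 tested genes that the study places in pericentromeric heterochromatin, CG14613, CG14642 and Suv3 were members, 2.16% against 1.93% of all genes tested, and none of the 139 was called against the control. An unadjusted p below 0.05 was seen for 20 (14.4% against 13.9% of all genes) in the libraries labelled HP1a RNAi and for 8 (5.76% against 10.2%) in those labelled Su(var)3-9 RNAi. Gel, which is not a member and was named after its value was seen, was the only one called between the knockdown groups, where it was lower in the libraries labelled HP1a RNAi.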

How the data were processed

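Total RNA of 9 S2 cell libraries was compared, 3 for each dsRNA, grouped by the labels. According to the labels and the study's methods, the authors used bcl2fastq, cutadapt, STAR (genome build dm3) and RSEM, and deposited TPM per gene and per transcript. Sequencing depth cannot be read from TPM and is unknown here. The authors' mean of size-factor-scaled counts per condition was used only as a guide to read support. Their tables also hold posterior probabilities and fold changes, which were not used. No column of per-sample values was left unused.

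TPM of CG genes were rescaled to a sum of 1000000 per library, and genes with a mean of at least 10 were tested as log2(value + 1) with limma 3.58.1 in R 4.3.3 (eBayes with trend, two-sided, Benjamini-Hochberg adjustment), each comparison on its own 6 libraries. Fold changes on that scale understate changes of low genes; ratios of means carry no pseudocount. The script was tested on simulated data. Names came from a RefSeq table of a later assembly, so no coordinates are given; all 119 members matched. The members, lists and roles were chosen with earlier results of these data known. Named were the 20 largest ratios, the 5 highest means, the genes at the limit (3 on each side), members of a list, members called or among the 5 largest differences between the knockdown groups, and neighbours; others were named by role after their values were seen. Alternatives covered pseudocount, filters, scaling, thresholds, trend, replicate block and each library left out.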

Additional observations from a re-analysis of the deposited data

Results flagged for a closer look

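The gene aub was singled out because its difference from the control differed between the labelled knockdowns by a test of the difference itself: the libraries labelled HP1a RNAi were higher than those labelled Su(var)3-9 RNAi by 0.74 on the log2 scale (limma, all 3 above all 3). The call was close to the threshold and depended on the setting, as given with the result.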

How the results depend on the processing

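The rule took 119 genes. It took 4 on TPM as deposited, 38 with a mean of at least 50, 31 with a log2 ratio of at least 0.6, 270 without a ratio limit, and 120 to 272 with a library left out. Between the knockdown groups limma called 10 genes, but 2 with a pseudocount of 0.1, 3 with a mean of at least 1, 4 without a filter, 6 on TPM as deposited, 6 without the trend, 2 with a replicate block, and 2 to 10 with a library left out. The libraries labelled HP1a RNAi against the control gave 41 calls, 20 without a filter, 530 on TPM as deposited (12 higher, 518 lower), 17 with a replicate block, and 8 to 60 with a library left out. For Su(var)3-9 RNAi the 10 calls became 89 on TPM as deposited, 32 in a fit of all 9 libraries, 1 with a replicate block, and 1 to 78 with a library left out, the 78 without Su(var)3-9 RNAi replicate 3. The difference of aub had an adjusted p of 0.341 with the replicate block. Deviations of same-numbered samples correlated at -0.33 to 0.08, so the numbers were not taken to pair samples. Where a library was left out, the spread of the remaining pair was pooled with the other group. Depth could not limit any statement numerically, since TPM do not hold it. The cause of these changes was not tested, other than that fewer libraries make the rule easier to meet.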

Other observations

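The 5 genes that the study text names as higher were not members, and none was called by limma in any of the 3 comparisons. Of the 5, 3 had an unadjusted p below 0.05 for HP1a RNAi against the control, against 13.9% of all genes. In each of the others 1 did, against 10.2% of all genes for Su(var)3-9 RNAi against the control and 7.58% between the knockdown groups. Trl, the GAGA factor, read 59.4, 72.9 and 67.2 in the controls, 89.9, 99.8 and 84.3 in the libraries labelled HP1a RNAi and 66.5, 83.8 and 93.7 in those labelled Su(var)3-9 RNAi, so that the last group overlapped the controls. HmgZ, an HMG-box protein, read 202, 166 and 164, then 255, 290 and 246, then 158, 217 and 227. Their ratios of the mean of 6 to the control mean were 0.38 and 0.39 on the log2 scale, and that of rad50, of the DNA repair complex with Mre11, was 0.32. Su(var)2-10 read 53.7 to 55.1 in the controls and 58.3 to 76.7 in the others. Its groups did not overlap, but its ratio of 0.26 was under the fold limit. Nup75 read 71.7 to 86.4 in the controls and 85.0 to 100.6 in the others, a ratio of 0.18.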
